A study of Mus musculus with 6 samples.

Results

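The interferon response and antigen processing genes described here were 47 mouse genes taken from a fixed list of names, out of 35968 genes with a transcript in the files. They comprised the receptors for type I and type II interferon, the kinases and transcription factors that act below them, antiviral effectors and sensors, interferon-induced GTPases, the peptide loading and immunoproteasome genes, 2 SOCS inhibitors and the chemokine gene Cxcl10. They were measured by RNA-seq in MS-5, a mouse bone marrow stromal line, in 3 libraries of MS-5 cells cultured alone (MS-5 only, MO1 to MO3) and 3 libraries of MS-5 cells kept for 24 hr with SKM-1, a human AML line (co-culture, MC1 to MC3). The labels give no genetic change or drug for either group, and the co-cultures were plated on confluent MS-5 cells with 4 AML cells per stromal cell. The stromal cells were washed and detached after the leukaemic cells had been taken off, and nothing in the sources used here says whether the 3 libraries of a group came from separate cultures, so that p-values measure the spread between these libraries, which may be technical. MS-5 is 1 line, so the stroma is represented by a single cell source.

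Type I interferons bind a receptor made of Ifnar1 and Ifnar2, and interferon gamma binds one made of Ifngr1 and Ifngr2. The kinases Jak1, Tyk2 and Jak2 sit on these receptors and phosphorylate STAT proteins. A complex that holds Stat2 and Irf9 then binds an element called the ISRE, and STAT dimers bind another called the GAS. Target genes block viral replication, or switch the proteasome to subunits that cut peptides for presentation on MHC class I. SOCS proteins close the loop by inhibiting the kinases. Most nucleated cells, stromal cells included, carry these receptors and can respond.

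Of the 47 genes, 45 passed the filter on low counts, and co-culture was compared to MS-5 only over all 13221 genes that passed. The inhibitor Socs3, 1 gene, rose in co-culture at an adjusted p-value under 0.1 (edgeR's quasi-likelihood test, Benjamini-Hochberg adjustment over all genes tested), which is 2.22% of the 45. In the same test 3.71% of all genes tested were higher and 0.666% were lower, and none of the 45 was lower. DESeq2's Wald test called 5 of the 45 higher (Socs3, Irf1, Irf7, Isg15 and Oasl2), with 6.88% of all genes called higher, and limma on TPM called 0. At an unadjusted p under 0.05, 8 of the 45 were higher (17.8%) and 0 were lower, against 8.62% and 5.63% of all genes. The 8 were Socs3, Jak2, Irf1, Irf7, Irf9, Isg15, Oasl2 and Igtp. Log2 fold changes were positive in 37 genes and negative in 8 (82.2% positive, against 47.5% of all genes), with a median of 0.18 against -0.02 over all genes, and ranged from -0.90 for Cxcl10 to 1.42 for Ifit1. The median size of the change, without its sign, was 0.20 in these genes and 0.22 over all genes.

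**Figure D1:**
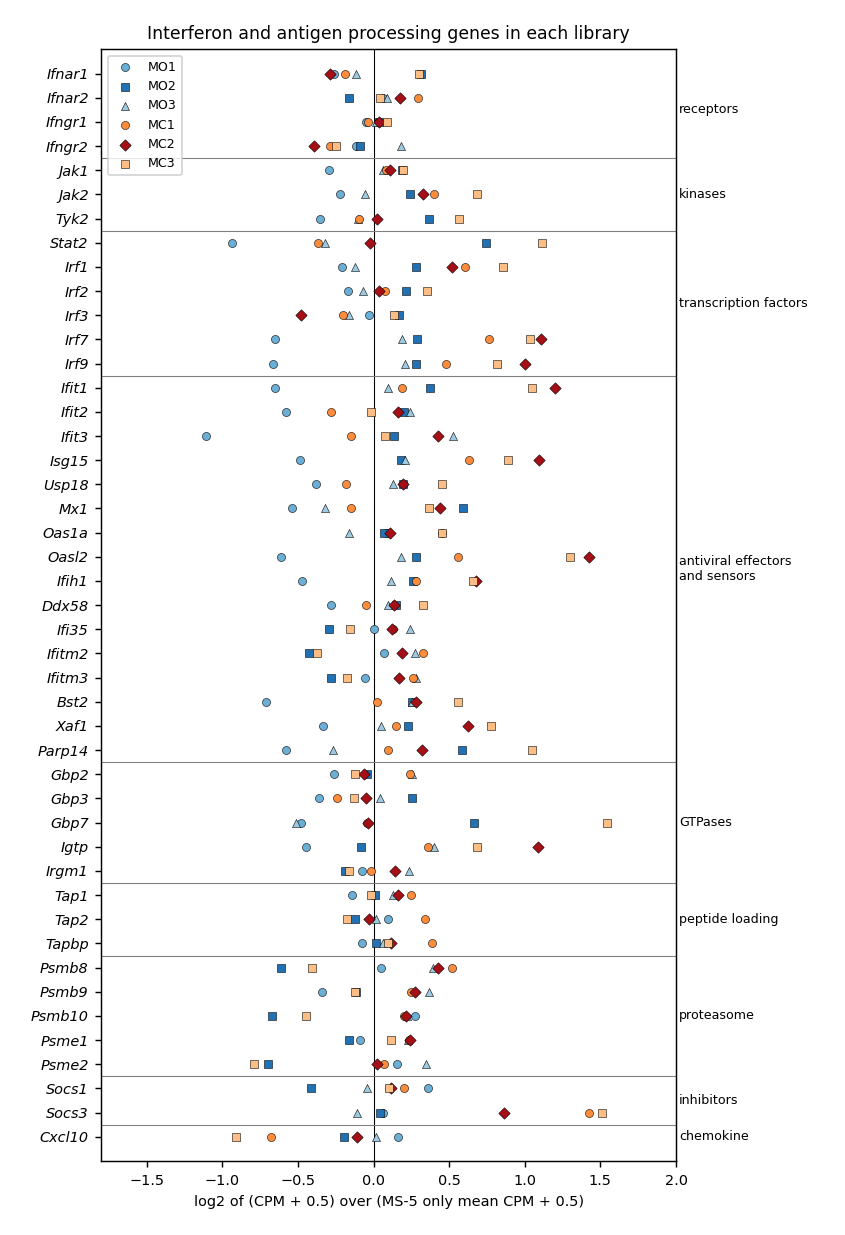
Each row is 1 of the 45 genes tested and each point 1 library, placed by the log2 of its TMM-normalized CPM plus 0.5 over the MS-5 only mean plus 0.5, with genes grouped by role. Socs3 is the gene whose co-culture points stand farthest from all MS-5 only points, MO1 lies at the left of most rows of effectors, and proteasome rows scatter around 0.

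The 6 libraries held 23978881 to 35694987 estimated counts. Neither group was uniform. MO2 and MC3 stood apart from the other 4 libraries, with mitochondrial genes at 6.03% and 5.89% of counts against 10.5% to 13.1%, and they were the highest library of their own groups in 14 of the 45 genes (31.1%), as in 33.0% of all genes. Leukocyte marker genes, which a stromal line should lack, summed to 89.2, 91.2 and 100.1 CPM in MO1, MO2 and MO3 and to 152, 464 and 142 CPM in MC1, MC2 and MC3. Of 22 such markers 18 were tested and 8 were called higher in co-culture (44.4%, against 3.71% of all genes). Some of these, such as Irf8 with 0 counts in each MS-5 only library, could pass the filter only through the co-culture libraries. Tyrobp, Fcer1g, Cd48 and Cd33 stayed at or below 14 counts in every library. Of 15 stromal markers, Lum and Dcn had at most 2 counts per library, and all 15 together gave sums of 9383 to 12243 CPM in MS-5 only and 12783 to 14821 CPM in co-culture. In such bulk samples, fewer cells of a type and less RNA per cell cannot be told apart. Human RNA could enter these values only through reads similar enough to mouse cDNA. The part of such reads in the leukocyte signal, and the part of that signal in the results below, was not tested.

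Where the data turn on single genes, the bases around the RefSeq transcription start were searched for matches to motifs like these elements. The 4 genes below were chosen because each had an unadjusted p under 0.05 and a GAS-like or ISRE-like match in its window. The other genes at that p, Jak2, Irf7, Irf9 and Oasl2, had no match in theirs. Each line gives the 160 bases before the RefSeq start on GRCm38.p6, read 5′ to 3′ along the gene's strand. Capitals mark the matches. The window of Socs3 is chr11:117969367-117969526, minus strand. That of Irf1 is chr11:53769854-53770013, plus strand. That of Isg15 is chr4:156200819-156200978, minus strand, and that of Igtp is chr11:58199396-58199555, plus strand. The window of Socs3 lies inside the span that GENCODE M21 gives this gene (117966079 to 117970047). Its match is thus upstream of the RefSeq start and not of the whole gene.
Socs3: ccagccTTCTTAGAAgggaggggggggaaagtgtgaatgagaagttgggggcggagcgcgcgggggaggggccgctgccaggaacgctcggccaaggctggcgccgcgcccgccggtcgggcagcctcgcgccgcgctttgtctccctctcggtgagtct
Irf1: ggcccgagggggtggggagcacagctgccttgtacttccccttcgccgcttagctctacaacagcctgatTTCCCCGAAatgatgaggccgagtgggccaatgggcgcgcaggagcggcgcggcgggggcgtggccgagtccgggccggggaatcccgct
Isg15: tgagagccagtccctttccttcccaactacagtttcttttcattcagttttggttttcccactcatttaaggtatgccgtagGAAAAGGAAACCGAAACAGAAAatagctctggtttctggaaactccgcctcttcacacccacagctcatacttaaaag
Igtp: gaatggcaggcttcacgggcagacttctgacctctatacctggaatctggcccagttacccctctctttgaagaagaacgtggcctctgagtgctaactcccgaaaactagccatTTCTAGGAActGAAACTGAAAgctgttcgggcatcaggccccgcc
Socs3 and Irf1 each hold a GAS-like match, Isg15 holds 3 ISRE-like matches that overlap by 4 bases each, and Igtp holds a GAS-like match followed by an ISRE-like match. The GAS-like motif was TTCNNNGAA, and the ISRE-like motif was GAAA, any pair of bases, and GAAA, both searched on either strand. In RefSeq windows from 250 bases before to 50 after the start, which 42 of the 47 genes had (Usp18, Parp14, Mx1, Mx2 and Tap2 had none in the table), the ISRE-like motif was in 20 genes (47.6%), against 3.99% of all genes with a window, and the GAS-like motif in 13 (30.95%), against 9.55%. A match is a run of letters and not a shown binding site. The median log2 fold change was 0.16 both in the 19 tested genes with the ISRE-like motif and in the 22 without it, and it was 0.24 in the 13 with the GAS-like motif and 0.15 in the 28 without it. Genes that were higher at an unadjusted p under 0.05 were 2 of the 19, 6 of the 22, 3 of the 13 and 5 of the 28 (against 8.62% of all genes).

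Socs3, an inhibitor of JAK kinases that STAT proteins themselves induce, was the clearest change (GRCm38 chromosome 11, 117966079 to 117970047). Its CPM was 45.3, 44.8 and 40.2 in MO1, MO2 and MO3 and 117, 79.4 and 125 in MC1, MC2 and MC3. The lowest co-culture library, MC2, lay above the highest MS-5 only library, and the MS-5 only libraries lay close together (43.4 ± 2.83, SD, n = 3, against 107 ± 24.3). The log2 fold change was 1.30 (SE 0.20, adjusted p = 0.0734, edgeR's quasi-likelihood test), a 2.47-fold difference. MC2 had the least Socs3 of the co-cultures. The groups did not overlap on the TPM scale either, at 20.7, 31.3 and 17.8 against 53.4, 34.3 and 89.6. Its log2 fold change lay between 1.18 and 1.47 whichever library was left out. The call held in the 3 fits without a co-culture library. Without MO1, MO2 or MO3 the adjusted p was 0.300, 0.149 and 0.290, and in those 3 fits no gene of all those tested passed. Limma on TPM gave 1.24 to 1.27 with adjusted p-values of 0.225 to 0.272. With 3 libraries against 3, an exact permutation test of a single gene cannot go below 0.1. Socs1, the other inhibitor, had a log2 fold change of 0.16 (SE 0.28) with overlapping groups.

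**Figure D2:**
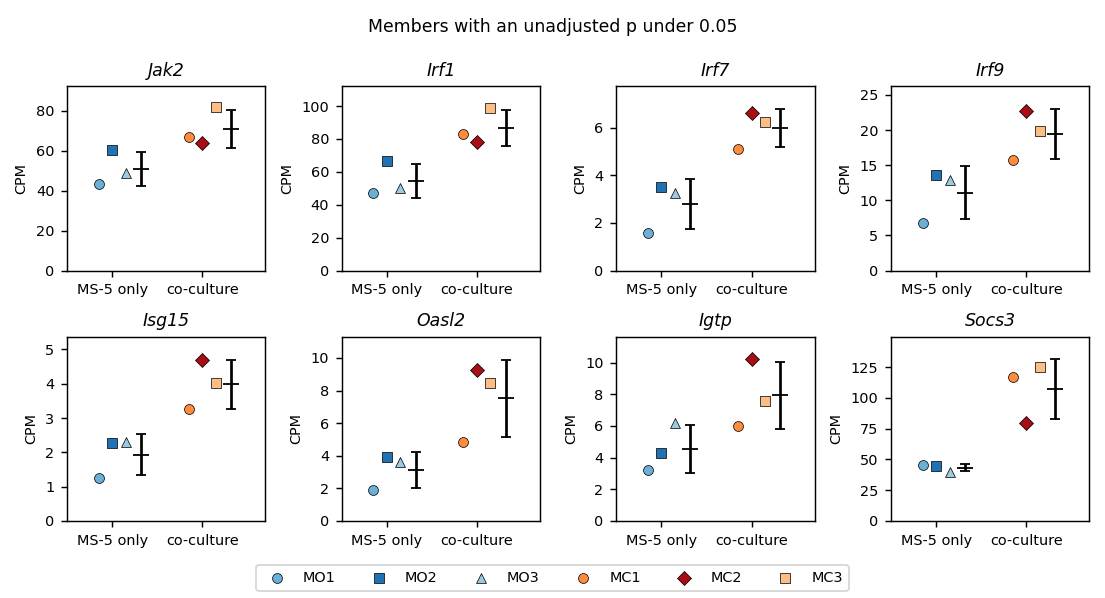
TMM-normalized CPM of the 8 genes with an unadjusted p under 0.05, 1 panel per gene with its own axis from 0, with points for libraries and black bars for the group mean and SD (n = 3). The groups do not overlap in 7 panels, and in Igtp the highest MS-5 only library, MO3 at 6.16 CPM, exceeds MC1 at 5.98 CPM.

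Receptor genes showed small differences, and none passed the test. Ifngr1, the ligand-binding chain for interferon gamma, was the most abundant of the 4, with a TPM of 54.0, 90.9 and 53.8 in MO1 to MO3 and 53.5, 52.8 and 94.8 in MC1 to MC3. MO2 and MC3 were the high libraries in each group, and in CPM, which ran from 91.5 to 100.9, all 6 libraries were close. Its log2 fold change was 0.03 (SE 0.11). Those of Ifnar1 and Ifnar2 were -0.04 (SE 0.23) and 0.18 (SE 0.14). Ifngr2, the signalling chain of the same receptor, was the only one of the 45 genes whose 3 co-culture libraries all lay below MS-5 only, at 28.5, 29.0 and 35.0 CPM in MO1 to MO3 and 25.1, 23.4 and 25.9 CPM in MC1 to MC3. The log2 fold change was -0.31 (SE 0.14, adjusted p = 0.385, edgeR), and in TPM its groups overlapped.

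Among the kinases, Jak2 had the largest log2 fold change, and none passed the test. Jak2, which serves the interferon gamma receptor and several cytokine receptors, was at 43.4, 60.2 and 48.9 CPM in MO1 to MO3 and 67.0, 63.8 and 81.7 CPM in MC1 to MC3. All co-cultures lay above all MS-5 only libraries, though MO2 and MC2 were only a few CPM apart. The log2 fold change was 0.48 (SE 0.17, adjusted p = 0.271, edgeR). Jak1, the kinase shared by both receptors and the most abundant of the 3, was at 67.5, 149 and 85.1 TPM in MO1 to MO3 and 88.0, 84.6 and 150.2 TPM in MC1 to MC3. Its groups overlapped and its log2 fold change was 0.13 (SE 0.18). Tyk2, the partner of Ifnar1, had 0.19 (SE 0.26).

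None of the 6 transcription factors passed the test, and 3 of them, Irf1, Irf7 and Irf9, had an unadjusted p under 0.05 (against 8.62% of all genes higher at that p) and co-culture libraries that all lay above MS-5 only (against 11.6%). Irf1, which interferon gamma induces through a GAS and which drives the immunoproteasome and peptide loading genes, was at 47.1, 66.4 and 49.9 CPM in MO1 to MO3 and 82.9, 78.3 and 98.97 CPM in MC1 to MC3. The log2 fold change was 0.67 (SE 0.18, adjusted p = 0.134, edgeR). In TPM it was the most abundant of these factors, at 27.5, 64.0 and 27.6 in MO1 to MO3 and 46.4, 43.2 and 95.9 in MC1 to MC3. On that scale MO2 exceeded MC1 and MC2.

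Irf7, the factor that amplifies type I interferon production, was at 1.60, 3.53 and 3.26 CPM in MO1 to MO3 and 5.10, 6.60 and 6.26 CPM in MC1 to MC3, a log2 fold change of 1.09 (SE 0.34, adjusted p = 0.198, edgeR). Irf9, the DNA-binding part of the complex with Stat2, was at 6.83, 13.6 and 12.9 CPM and 15.7, 22.8 and 19.9 CPM, a log2 fold change of 0.81 (SE 0.30, adjusted p = 0.275, edgeR). In both genes MO1 was well below the other MS-5 only libraries. Stat2, its partner in that complex, was high in the pair of libraries that stand apart. It was at 36.0 CPM in MO2 and 46.7 CPM in MC3, against 10.9 to 20.9 CPM in the other 4, so that its log2 fold change of 0.39 had an SE of 0.55. Irf2, a repressor of interferon targets, had 0.16 (SE 0.17). Irf3, the factor that sensors of viral nucleic acid activate, had -0.16 (SE 0.20).

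Antiviral effectors and sensors were the largest group, with 18 genes, and 16 of them were tested. Their median log2 fold change was 0.35. The fold changes were positive in 15 genes, and 4 (Isg15, Oasl2, Oas1a and Ifih1) had co-culture libraries that all lay above MS-5 only (25.0%, against 11.6% of all genes). None passed the quasi-likelihood test, and 2 (Isg15 and Oasl2) had an unadjusted p under 0.05 (12.5%, against 8.62% of all genes), which DESeq2's Wald test called (adjusted p = 0.0675 and 0.0398). Isg15, a ubiquitin-like protein that is joined to other proteins, was at 1.24, 2.26 and 2.31 CPM in MO1 to MO3 and 3.27, 4.69 and 4.02 CPM in MC1 to MC3. Its log2 fold change was 1.04 (SE 0.34, adjusted p = 0.222, edgeR). Oasl2, an oligoadenylate synthetase-like protein, was at 1.88, 3.92 and 3.63 CPM in MO1 to MO3 and 4.85, 9.26 and 8.44 CPM in MC1 to MC3, a log2 fold change of 1.26 (SE 0.38, adjusted p = 0.180, edgeR). MO1 and MC1 were the lowest library of their groups for both genes.

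Ifit1, which binds viral RNA that lacks host caps, had the largest positive log2 fold change of the 45, 1.42, but at 0.120, 0.764 and 0.544 CPM in MO1 to MO3 and 0.610, 1.74 and 1.51 CPM in MC1 to MC3 the groups overlapped and the SE was 0.72 (adjusted p = 0.451, edgeR). Of its neighbours, Ifit2 had a log2 fold change of -0.04 (SE 0.26) and Ifit3 had 0.14 (SE 0.43), and MO1 was the lowest of the 6 libraries for all 3. Those of Oas1a, an RNA-activated synthetase, and Ifih1, the long RNA sensor MDA5, were 0.76 (SE 0.45) and 0.66 (SE 0.35). Ddx58, the RNA sensor RIG-I, was more abundant than Ifih1 in TPM in every library and had 0.15 (SE 0.18).

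The membrane proteins that block virus entry were the most abundant of all 47 genes. Ifitm2 was at 566, 617 and 635 TPM in MO1 to MO3 and 676, 582 and 639 TPM in MC1 to MC3, with a log2 fold change of 0.08 (SE 0.26). Ifitm3 was at 474 to 626 TPM and 524 to 673 TPM, with 0.10 (SE 0.20). Both were thus at a high level already in MS-5 cells alone, and their groups overlapped. Bst2, the tetherin that holds budding virus at the cell surface, had 0.31 (SE 0.29), and was at 78.9, 241 and 151 TPM against 132, 150.5 and 299 TPM. Xaf1, which promotes apoptosis, had 0.59 (SE 0.27), and Parp14, an ADP-ribosyl transferase, had 0.56 (SE 0.39). Usp18, which removes Isg15 from proteins and restrains type I signalling, had 0.24 (SE 0.40). With each library left out in turn, Parp14 ran from 0.21 to 0.99, Bst2 from 0.080 to 0.46 and Usp18 from 0.017 to 0.43. Ifi35 had 0.04 (SE 0.18). Mx1, an antiviral GTPase, had 0.38 (SE 0.64), and its value was not stable. It lay between 0.32 with library size and 2.32 with an effective length offset, and was 1.27 without MO2 and 0.061 without MO1, at adjusted p-values (edgeR) of 0.974, 0.370, 0.284 and 1.00. The protein-coding transcripts of Mx1 are listed at 0 TPM in every library. Mx2 and Rsad2 did not pass the filter. Mx2 had 2, 2 and 2 counts in MO1 to MO3 and 6, 6 and 18 in MC1 to MC3, and Rsad2, the radical SAM enzyme viperin, had 2, 1 and 0 counts and 4, 1 and 10.

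**Figure D3:**
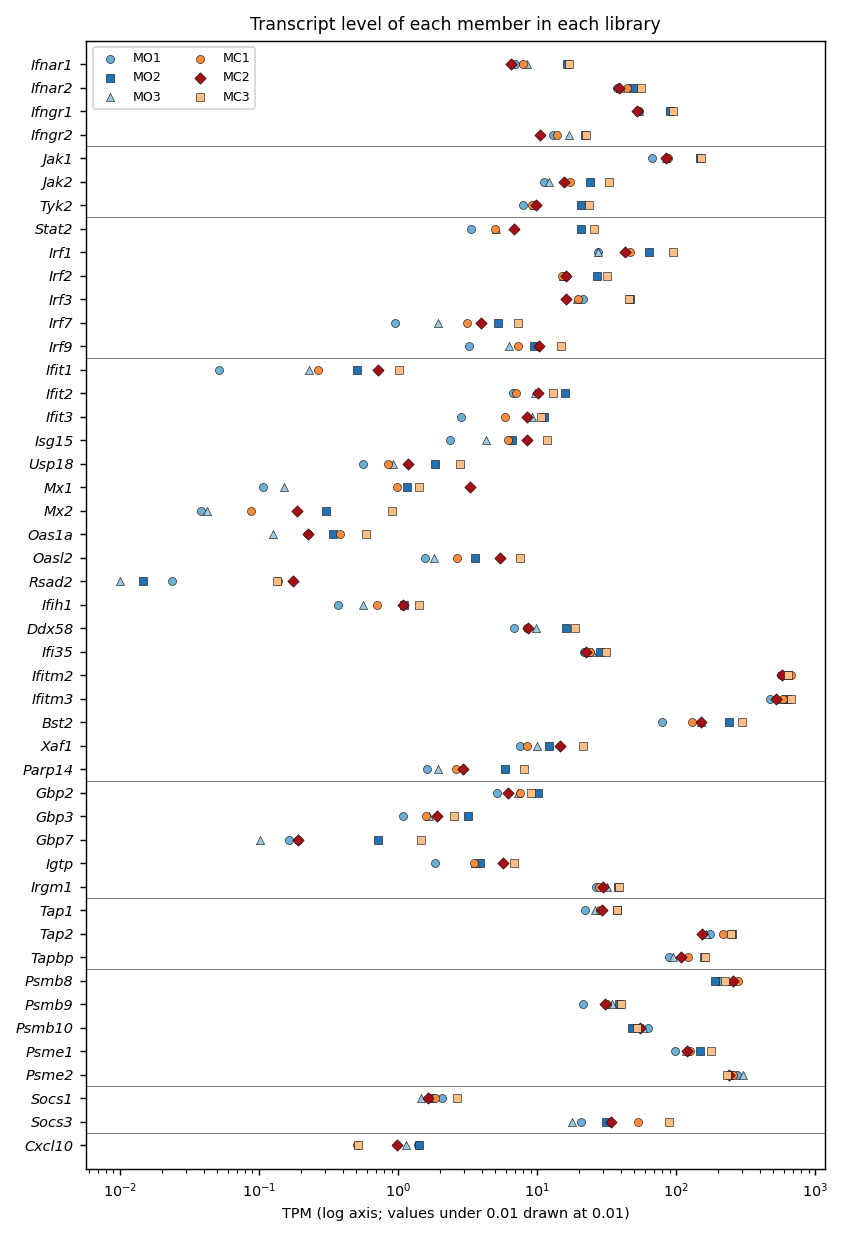
TPM of all 47 genes in each library on a log axis, grouped by role as in the plot of deviations. Ifitm2 and Ifitm3 are the highest rows, at 474 to 676 TPM, and Rsad2, Mx2, Oas1a and Ifit1 are among the lowest.

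Of the 5 GTPases that act on intracellular pathogens, 1, Igtp, had an unadjusted p under 0.05 (against 8.62% of all genes higher). It was at 3.19, 4.27 and 6.16 CPM in MO1 to MO3 and 5.98, 10.2 and 7.60 CPM in MC1 to MC3, with groups that overlapped at MO3 and MC1. The log2 fold change was 0.80 (SE 0.32, adjusted p = 0.331, edgeR). Irgm1, the most abundant of the 5, was at 26.6, 38.2 and 32.1 TPM in MO1 to MO3 and 28.0, 30.1 and 38.9 TPM in MC1 to MC3, and its log2 fold change was -0.01 (SE 0.16). Gbp2 had 0.03 (SE 0.20) and Gbp3 -0.16 (SE 0.28). Gbp7 was highest in MC3, at 3.46 CPM, and in MO2, at 1.66 CPM, against 0.453 to 0.831 CPM in the other 4, and had 0.97 (SE 0.80).

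The genes of antigen processing were abundant in MS-5 cells alone. None of the 8 passed edgeR's quasi-likelihood test (over all genes, 3.71% were higher and 0.666% lower). At an unadjusted p under 0.05 there were 0 (over all genes, 8.62% higher and 5.63% lower). DESeq2's Wald test called 0 (over all genes, 6.88% higher), as did limma. With shares this small, 0 among 8 genes does not set them apart from all genes. Tap2, a subunit of the transporter that carries peptides into the endoplasmic reticulum, was at 176, 251 and 163 TPM in MO1 to MO3 and 216, 154 and 251 TPM in MC1 to MC3, with a log2 fold change of 0.06 (SE 0.19). Its partner Tap1 was at 22.1 to 37.7 TPM over the 6 libraries, with 0.13 (SE 0.14). Tapbp, the tapasin that bridges MHC class I to the transporter, had 0.21 (SE 0.15), and its groups did not overlap, at 190, 203 and 210 CPM against 263, 218 and 215 CPM, the gap between MO3 and MC3 being small. Psme2, a subunit of the PA28 activator of the proteasome, had the highest TPM of the 5 proteasome genes among the 47 in MS-5 only, at 274, 246 and 305 TPM in MO1 to MO3 and 256, 242 and 234 TPM in MC1 to MC3, and its log2 fold change was -0.18 (SE 0.34). In co-culture Psmb8 had a higher mean than Psme2, 255 against 244 TPM. Psme1, the other subunit, had 0.20 (SE 0.15).

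The inducible catalytic subunits Psmb8, Psmb9 and Psmb10 had log2 fold changes of 0.24 (SE 0.34), 0.15 (SE 0.23) and 0.02 (SE 0.31). With each library left out in turn, Psmb8 ran from 0.00087 to 0.48 and Psmb9 from 0.022 to 0.38. In CPM, Psmb8, Psmb10 and Psme2 were lowest in MO2 and MC3. Each inducible subunit replaces a constitutive one in the proteasome, and the TPM of the pair can be set against each other within a library, a ratio computed after the values were seen and given with no test. Psmb8 over Psmb5 was 1.08, 1.35 and 1.54 in MO1 to MO3 and 1.93, 1.98 and 1.88 in MC1 to MC3. The groups did not overlap (1.33 ± 0.232 against 1.93 ± 0.0471, SD, n = 3), and MO2 and MC3 did not stand out. Neither term of the ratio passed the test by itself, the log2 fold change of Psmb5 being -0.31 (SE 0.34) beside 0.24 (SE 0.34) for Psmb8, and in TPM the groups overlapped for both. The constitutive Psmb6 and Psmb7 had -0.25 (SE 0.34) and -0.15 (SE 0.33). Psmb9 over Psmb6 (0.0936 ± 0.0373 against 0.120 ± 0.0273) and Psmb10 over Psmb7 (0.251 ± 0.0112 against 0.268 ± 0.0181) overlapped between the groups, as did Psme1 and Psme2 over Psme3, the PA28 gamma subunit.

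**Figure D4:**
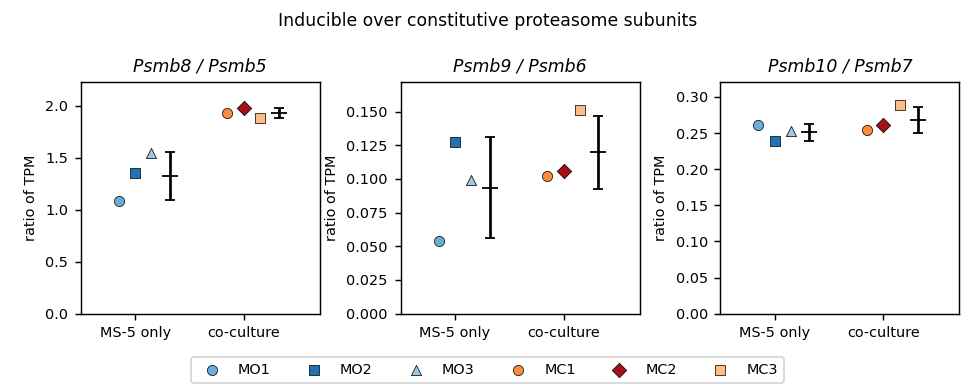
TPM of each inducible proteasome subunit over that of the constitutive subunit it replaces, with points for libraries and black bars for the group mean and SD (n = 3), each axis from 0. Psmb8 over Psmb5 is 1.08 to 1.54 in MS-5 only and 1.88 to 1.98 in co-culture, and the groups overlap in the other 2 panels.

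Cxcl10, the chemokine that interferon gamma classically induces, had the largest negative log2 fold change, -0.90 (SE 0.51, adjusted p = 0.512, edgeR). It was scarce, at 1.16, 0.796 and 0.997 CPM in MO1 to MO3 and 0.427, 0.872 and 0.291 CPM in MC1 to MC3. MC2 overlapped with MO2 in CPM. In TPM, where it was at 1.39, 1.41 and 1.15 against 0.508, 0.986 and 0.512, the groups did not overlap.

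In all, 10 of the 45 genes had co-culture libraries that all lay above MS-5 only (22.2%), against 11.6% of all genes, and 1 lay below (2.22%), against 9.6%. The 10 were Jak2, Irf1, Irf7, Irf9, Isg15, Oas1a, Oasl2, Ifih1, Tapbp and Socs3, and the other 34 overlapped. This count rested on the CPM scale. Scaled by library size alone 5 genes lay above (against 10.1% of all genes) and 1 below (against 11.7%). In TPM 1 gene lay above, Socs3 (against 7.68%), and 1 below, Cxcl10 (against 7.53%). MO1 was the lowest of the 6 libraries in 27 of the 45 genes (60.0%), against 22.4% of all genes, and in 12 of the 16 effectors and sensors, a count made after the values were seen. Without MO1 the median log2 fold change of the genes was 0.12.

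Co-culture and MS-5 only were also compared within the libraries that stand apart (MC3 with MO2) and within the rest (MC1 and MC2 with MO1 and MO3). In 29 of the 45 genes (64.4%) co-culture was higher in both, against 36.0% of all genes, and 6 were lower in both, against 42.3% of all genes. With a covariate for MO2 and MC3 in the fit, 10 genes were higher at an adjusted p under 0.1 (22.2%), against 13.9% of all genes, and 1 was lower, against 16.4%. The 10 were Irf1 (adjusted p = 0.0105, edgeR), Socs3 (0.0111), Jak2 (0.0151), Parp14 (0.0254), Oasl2 (0.0467), Irf7 (0.0496), Isg15 (0.0652), Irf9 (0.0779), Gbp7 (0.0784) and Xaf1 (0.0896), and the gene that was lower was Ifngr2 (0.0930). With the covariate the log2 fold change went from 0.67 to 0.68 for Irf1 and from 1.04 to 1.05 for Isg15, and those of Mx1 and Ifit1 went from 0.38 to 0.59 and from 1.42 to 1.505. No batch is named in the labels, so that what sets MO2 and MC3 apart was not tested. The covariate was chosen because these libraries stood apart in the same data, and its adjusted p-values do not allow for that choice.

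The excess in MC2 was measured for each gene as how far the CPM of MC2 exceeded the MS-5 only mean, relative to the average of the same difference for MC1 and for MC3. Over all genes above MS-5 only in each co-culture library, 37.5% had a ratio over 3. Of the 10 such genes here, 0 did. Their ratios ran from 0.207 for Oas1a to 1.75 for Oasl2 with a median of 0.988. Oasl2, Irf9, Isg15, Ifih1 and Irf7 were highest in MC2, with ratios of 1.32 to 1.75, whereas Socs3, Jak2, Irf1, Oas1a and Tapbp were at 0.207 to 0.655. Of the 18 leukocyte markers tested, 13 lay above MS-5 only in each co-culture library (72.2%, against 11.6% of all genes) and 5 overlapped. The log2 fold change was negative in 3 of the 18, Lyz2, Arhgdib and Cd53. In the 13, unlike in the 10 genes here, the ratio was over 3 throughout, with a median of 5.82.

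**Figure D5:**
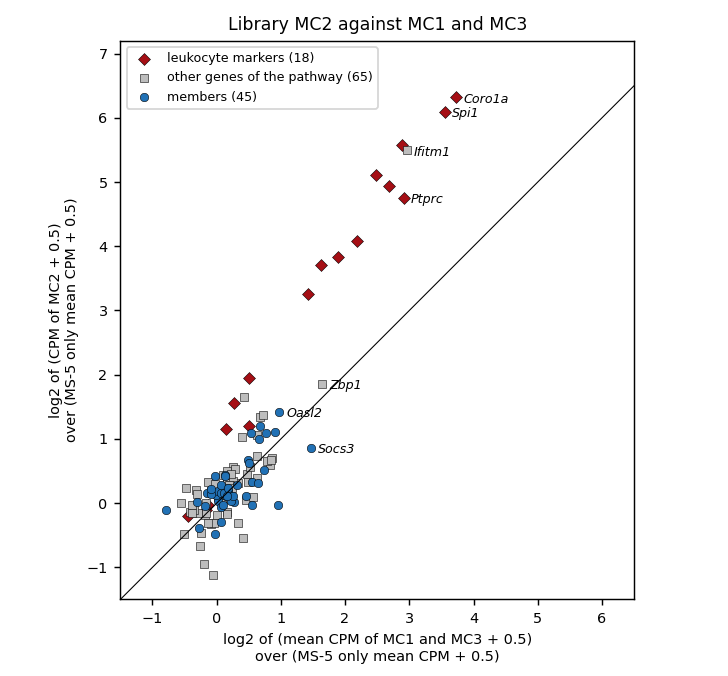
Each point is a gene tested, placed by the log2 of MC2 (vertical) and of the mean of MC1 and MC3 (horizontal) over the MS-5 only mean, each in TMM-normalized CPM plus 0.5, with a line where both are equal. The interferon and antigen processing genes lie around the line with Socs3 below it. Ifitm1 and some leukocyte markers, among them Coro1a and Spi1, lie far above it.

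Other genes of the pathway, from a list of 88 symbols of which 87 were found, were measured in the same way. Of these, 65 were tested, and 4 were called higher (6.15%, against 3.71% of all genes) and 0 lower (against 0.666%). At an unadjusted p under 0.05, 12 were higher (18.5%, against 8.62% of all genes) and 0 lower (against 5.63%). In each co-culture library 15 of the 65 lay above MS-5 only (23.1%, against 11.6% of all genes) and 1, Nmi, below (against 9.6%). Zbp1, a sensor of Z-form nucleic acid, was at 0.958, 1.15 and 1.41 CPM in MO1 to MO3 and 3.39, 5.57 and 6.03 CPM in MC1 to MC3, a log2 fold change of 2.09 (SE 0.34, adjusted p = 0.0734, edgeR). Dtx3l, a ubiquitin ligase, had 0.83 (SE 0.16, adjusted p = 0.0775, edgeR), and Trim25, the ligase that activates RIG-I, had 0.47 (SE 0.11, adjusted p = 0.0982, edgeR). These 3 genes had MC2 ratios under 3. The count of 4 fell to 2 when scaled by library size alone (adjusted p = 0.203 for Dtx3l and 0.195 for Trim25, edgeR) or with an effective length offset (0.105 and 0.250), and to between 0 and 2 with each library left out, and was 8 with DESeq2's Wald test. Trim25 also lost its call with a minimum of 5 counts in 3 libraries (adjusted p = 0.117, edgeR) and with no filter (0.21). Among the largest changes that did not pass were 4 GTPases, Gbp5 at 1.57 (SE 0.77), Iigp1 at 1.17 (SE 0.45), Irgm2 at 0.97 (SE 0.30) and Tgtp1 at 0.92 (SE 0.40) on the log2 scale, and the groups did not overlap for Iigp1 and Irgm2. The others were Ifi203 at 0.80 (SE 0.20) and Dhx58, a regulator of RIG-I, at 0.80 (SE 0.33), whose groups did not overlap, and Oas1b at 0.77 (SE 0.85), whose groups did.

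Ifitm1, the sister gene of Ifitm2 and Ifitm3, was the fourth gene called. It had 1, 2 and 9 counts in MO1 to MO3 and 173, 715 and 143 counts in MC1 to MC3, a log2 fold change of 6.31 (SE 1.21, adjusted p = 0.0742, edgeR). Its MC2 ratio was 6.49, in the range of the leukocyte markers, and whether the signal came from MS-5 cells was not tested. Stat3, the STAT that signals below the interleukin 6 family of receptors, was at 84.5, 132 and 103 CPM in MO1 to MO3 and 171, 160.3 and 211 CPM in MC1 to MC3, with groups that did not overlap and a log2 fold change of 0.76 (SE 0.21, adjusted p = 0.139, edgeR).

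Interferon transcripts were barely detected. Of 11 ligand genes none was tested. Ifnb1 had 1 count in MO1 and 1 in MC3, Ifne had 1 in MO2, and the other 9 (Ifna1, Ifna2, Ifna4, Ifna5, Ifnk, Ifnz, Ifng, Ifnl2 and Ifnl3) had 0 counts in every library, which allows at most 0.0840 to 0.125 CPM without TMM, depending on the library. The 10 antigen presentation genes tested outside the list of 47 had a median log2 fold change of -0.09. In CPM the groups overlapped in all 10, while 11.6% of all genes lay above and 9.6% below. In TPM the co-culture libraries of Calr and Erap1 all lay below MS-5 only, as did those of 7.53% of all genes.

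Some levels are uncertain because transcripts of near-identical genes can share reads. Of the 31-base stretches of the leading transcript, 68.8% occur in another gene for Oas1a, 66.2% for Psme2, 61.8% for Ifit3, 55.5% for Ifitm2, 26.7% for Ifnar2, 22.1% for Psme1, 20.5% for Ifitm3, 16.4% for Igtp, 14.8% for Gbp7 and 12.8% for Isg15. At the level of transcripts, 3 of the 260 transcripts of these genes (1.15%) had under 1 count in each MS-5 only library and at least 1 in each co-culture library, against 0.800% of all transcripts. The largest was Psme1-210, a protein-coding transcript, at 0.196, 0 and 0 counts in MO1 to MO3 and 190.2, 64.7 and 68.6 counts in MC1 to MC3. The others were a retained-intron transcript of Mx1, with 4.24, 12.2 and 3.17 counts in MC1 to MC3, and a short protein-coding transcript of Irf3, with 1.87, 3.13 and 3.69.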

How the data were processed

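RNA-seq was done on 3 libraries of MS-5 cells cultured alone and 3 of MS-5 cells after co-culture, grouped by the sample labels. The authors quantified reads with kallisto 0.43.0 against a mouse cDNA index (GRCm38), after FastQC 0.11.7, and deposited, per transcript, estimated counts together with TPM values, unfiltered, the counts not being scaled between libraries. Since the index was of mouse, human RNA entered the values only through reads similar enough to mouse cDNA. The deposited lengths and effective lengths, in bases, were used for 1 alternative and for transcript lengths.

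Estimated counts and TPM were summed per gene by GENCODE M21 names. Of 118489 transcripts, 1761 (0.477% to 0.562% of counts) had no match and were left out. Estimated counts were rounded, filtered with filterByExpr (13221 genes left), normalized by TMM (factors 0.923 to 1.18) and tested in R 4.3.3 with edgeR 4.0.16 by its quasi-likelihood test, with p-values adjusted over all genes by Benjamini-Hochberg and called under 0.1. The standard error of a log2 fold change was that value over the square root of F. CPM values are TMM-normalized. On simulated counts for the 13221 genes of this comparison, with 200 genes changed by 2 on the log2 scale, the test called 173, of which 150 were true. That change is larger than that of any member (at most 1.42), and the simulation did not set MO2 and MC3 apart. Recovery of smaller changes was not tested.

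The members, the other pathway genes, the markers and the motifs were chosen with earlier results of these data known. All 47 members are named. Values per library are given for members past the threshold or with an unadjusted p under 0.05 and for the most abundant member of each role, and other members were given them after their values were seen. Other pathway genes are named if past the threshold, if at 0 counts throughout, or among the 10 largest changes, and Stat3, Nmi, Calr, Erap1 and the constitutive proteasome genes were named after their values were seen. Promoter windows are from a RefSeq table (GRCm38.p6). Coordinates are those of GENCODE M21. Alternatives were DESeq2's size factors, library size, DESeq2's Wald test (DESeq2 1.42.0), limma 3.58.1 on log2 of TPM plus 0.5, 0.1 or 1, an effective length offset, a minimum of 5 counts in 3 libraries, no filter at all, a block for replicate numbers, a term for MO2 and MC3, which lie apart in the paper's PCA plot, each library left out in turn, and a threshold of 0.05. A fit to MO1, MO3, MC1 and MC2 alone was added after the values were seen. Sleuth, which the study used, was not used here, and its NMR, flow cytometry and mouse experiments were not analysed here. Some results are not reported here.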

Additional observations from a re-analysis of the deposited data

How the results depend on the processing

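The median log2 fold change of the 45 genes kept its sign in every fit, from 0.166 with an effective length offset to 0.215 in MO1, MO3, MC1 and MC2 alone, and from 0.117 to 0.236 with each library left out in turn. Among members whose co-culture libraries all lay above MS-5 only, 0 had an MC2 ratio over 3 under each scaling tried. The count past the threshold was 1 with DESeq2's size factors, library size, an effective length offset and both other filters, 5 with DESeq2's Wald test, 0 with limma at each pseudocount, 11 with the covariate for MO2 and MC3, 4 in MO1, MO3, MC1 and MC2 alone (Socs3, Jak2, Irf1 and Parp14), 0 at a threshold of 0.05, and 0 to 1 with each library left out. Over all genes the count, 579, was 1268 with the Wald test, 356 and 224 with limma at pseudocounts of 0.5 and 1, 3999 with the covariate, 1702 in the 4 libraries, 2 at a threshold of 0.05, and 0 to 549 with each library left out, 0 being the count without MO1, MO2 or MO3 in turn. Among other pathway genes the count, 4, was 2 with library size or the effective length offset, 8 with the Wald test, 2, 2 and 1 with limma at pseudocounts of 0.5, 0.1 and 1, 19 with the covariate, 7 in the 4 libraries, 0 at 0.05, and 0 to 2 with each library left out. Members whose groups do not overlap, 11 (24.4%, against 21.2% of all genes), were 6 with library size (13.3%, against 21.8%), 2 in TPM (4.44%, against 15.2%), 25 in the 4 libraries (56.8%, against 59.7%) and 12 to 22 with each library left out (26.7% to 48.9%, against 25.3% to 48.6%), fewer libraries making separation easier. Elsewhere the cause was not tested.

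Some log2 fold changes took the opposite sign under other settings. Gbp3 was 0.087, 0.121 and 0.062 with limma at pseudocounts of 0.5, 0.1 and 1, 0.093 with the offset and 0.0198 in the 4 libraries. Irgm1 was 0.0036 with DESeq2's size factors, 0.0037 with the Wald test and 0.0021, 0.0022 and 0.0021 with limma. Psmb10 was -0.060, -0.061 and -0.060 with limma, -0.088 with the offset and -0.0166 in the 4 libraries, where Ifit2 was 0.0885. With each library left out in turn, log2 fold changes that took both signs ran from -0.24 to 0.15 for Ifnar1, -0.0016 to 0.051 for Ifngr1, -0.040 to 0.41 for Tyk2, -0.19 to 1.00 for Stat2, -0.24 to 0.10 for Ifit2, -0.19 to 0.52 for Ifit3, -0.094 to 0.18 for Ifi35, -0.10 to 0.26 for Ifitm2, -0.030 to 0.26 for Ifitm3, -0.10 to 0.18 for Gbp2, -0.31 to 0.0017 for Gbp3, -0.076 to 1.86 for Gbp7, -0.10 to 0.12 for Irgm1, -0.11 to 0.17 for Tap2, -0.23 to 0.21 for Psmb10, -0.44 to 0.043 for Psme2 and -0.037 to 0.43 for Socs1.

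The replicate numbers in the labels were tried as a block. Of libraries with the same number, MO1 with MC1 deviated together across genes (correlation of 0.532), and MO2 with MC2 (-0.291) and MO3 with MC3 (-0.516) did not. The highest correlation, 0.730, was of MO2 with MC3. Deviations were taken from each group's own mean, and MO2 and MC3 stand apart in their groups. These values therefore cannot decide whether a number marks a shared culture. With the block 1 member passed, Socs3, with 444 of all genes and 2 other pathway genes.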
